A study of Homo sapiens with 12 samples.

Results

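The 8 genes described here feed the epidermal growth factor receptor (EGFR) and were followed through Ribo-seq of trametinib-treated colorectal cancer cells: the ligands AREG, EREG, TGFA and HBEGF, the proteases ADAM10 and ADAM17, and RHBDF1 and RHBDF2. They were taken by symbol from the table of the series, and 8 of 8 were among its 15798 genes. The cells were HCT116, an established human colorectal carcinoma line. Dishes received 100 nM trametinib, an inhibitor of the kinases MEK1 and MEK2, or the solvent DMSO for 24 h, and every dish was given cycloheximide, which arrests ribosomes, just before lysis. Input RNA, a measure of mRNA abundance, and RNase I-resistant ribosome footprints were each sequenced in 3 biological replicates per treatment, which gave 12 libraries in 4 groups (DMSO_IN, DMSO_RPF, TRAM_IN and TRAM_RPF). A single line, dose and time were sampled.

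The ligands of EGFR are made as membrane-spanning precursors whose EGF-like domain is cut off at the cell surface and then binds the receptor on the same or on a neighbouring cell. ADAM17 is the main protease for amphiregulin (AREG), epiregulin (EREG), TGF-alpha (TGFA) and heparin-binding EGF-like growth factor (HBEGF), whereas ADAM10 is known for shedding EGF and betacellulin. The iRhoms RHBDF1 and RHBDF2 are inactive relatives of rhomboid proteases that carry ADAM17 from the endoplasmic reticulum to the surface and regulate it there. In colorectal tumours AREG and EREG are known as the ligands whose abundance is followed in connection with EGFR antibody therapy, and several ligand genes are known targets of ERK, the kinase that MEK activates.

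On GRCh38 (Gencode v44), EREG (chr4:74365145-74388749) and AREG (chr4:74445136-74455005) lie in the same orientation on the plus strand with 56.4 kb between them. TGFA lies at chr2:70447284-70554193, HBEGF at chr5:140332843-140346603, ADAM10 at chr15:58588809-58749791, ADAM17 at chr2:9488486-9556732, RHBDF1 at chr16:58059-76355 and RHBDF2 at chr17:76470891-76501790, each on the minus strand. The counts cover the open reading frames only. These are short for the ligands, from 480 nt in TGFA to 756 nt in AREG over 5 or 6 coding exons, and long for the others, from 2244 nt in ADAM10 to 2565 nt in RHBDF1 over 16 to 19 coding exons.

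The 250 bases upstream of the starts of the 4 ligand genes are shown, from RefSeq on GRCh38.p14, 5′ to 3′ in the direction of transcription. RefSeq starts can differ from the Gencode ends given above. The TGFA stretch, from the first of 2 entries, lies within the Gencode span of that gene. Capitals mark every match, on either strand, to a cyclic AMP response element (CRE, TGACGTCA), an AP-1 site (TGANTCA), the core of an ETS site (CCGGAA) or a TATA box (TATAAA).
AREG, chr4:74444886-74445135, plus strand: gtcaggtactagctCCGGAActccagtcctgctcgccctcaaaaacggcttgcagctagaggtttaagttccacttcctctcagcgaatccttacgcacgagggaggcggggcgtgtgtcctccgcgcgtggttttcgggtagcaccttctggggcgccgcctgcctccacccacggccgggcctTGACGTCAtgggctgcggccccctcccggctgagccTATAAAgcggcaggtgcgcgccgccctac
EREG, chr4:74364895-74365144, plus strand: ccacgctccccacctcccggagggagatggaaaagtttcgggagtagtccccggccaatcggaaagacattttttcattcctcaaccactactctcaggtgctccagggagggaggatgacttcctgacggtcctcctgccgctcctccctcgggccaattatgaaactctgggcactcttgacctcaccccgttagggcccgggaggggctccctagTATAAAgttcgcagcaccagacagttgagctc
TGFA, chr2:70553827-70554076, minus strand: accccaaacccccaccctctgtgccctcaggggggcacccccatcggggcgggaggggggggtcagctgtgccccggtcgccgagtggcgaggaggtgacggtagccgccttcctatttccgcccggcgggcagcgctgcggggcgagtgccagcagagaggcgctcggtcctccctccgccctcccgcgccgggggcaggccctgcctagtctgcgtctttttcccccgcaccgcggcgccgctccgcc
HBEGF, chr5:140346604-140346853, minus strand: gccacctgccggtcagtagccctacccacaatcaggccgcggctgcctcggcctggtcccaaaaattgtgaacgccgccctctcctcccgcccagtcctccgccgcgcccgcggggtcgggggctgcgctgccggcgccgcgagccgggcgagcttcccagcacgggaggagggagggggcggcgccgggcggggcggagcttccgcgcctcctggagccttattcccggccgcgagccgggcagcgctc

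The capitals fall in 2 of the 4 ligand sequences. Relative to the RefSeq start, AREG held a CRE from position -65, an ETS core from position -236 and a TATA box from position -29, and EREG held a TATA box from position -32. TGFA and HBEGF had no match to any of the 4 motifs. Over 250 bases before to 50 after the RefSeq start, G and C made up 75.3% in TGFA and 75.0% in HBEGF, against 66.3% in AREG and 57.7% in EREG. Among the other members, searched in the same way over 250 bases before to 50 after the RefSeq start, ADAM17 held ETS cores from positions -26 and 9, RHBDF1 held an AP-1 site from position -64 and an ETS core from position -119, and ADAM10 and RHBDF2 held none. The RefSeq starts of these other members lay inside their Gencode spans, and for RHBDF2 the first of 2 entries was read. In 35116 RefSeq promoters of this length, the CRE was present in 1.85%, the AP-1 site in 7.71%, the ETS core in 17.2% and the TATA box in 11.5%. The matches describe these letters only.

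Counts inside reading frames summed to between 2276693 and 2845568 per input library and to between 10127477 and 19181588 per footprint library. Input was thus the shallower assay. The median standard error of the changes tested below was 0.216 in input and 0.16 in footprints over all genes. For AREG, EREG and HBEGF it was smaller in input. The ERK output genes DUSP6, SPRY4 and ETV5 checked the treatment labels. Their raw counts were at or under 34 in each trametinib library and at or over 135 in each DMSO library. By the test described below, 3 of 3 fell in both assays. This is a description, since in input they entered that test through their DMSO libraries alone. The epithelial markers EPCAM, CDH1, KRT8, KRT18 and KRT19 had at least 174 counts in every library, the leukocyte gene PTPRC, the endothelial gene PECAM1 and the fibroblast gene COL1A2 had at most 3, and COL1A1 had 14 to 148. The DMSO libraries of replicate 1 stood apart for the ligands, in both assays. In input, 4 of the 8 members (the 4 ligands) were more than 1.5 times above the higher of the other DMSO libraries, against 5.66% of all genes tested, and in footprints 5 of 8 were (the ligands and ADAM17), against 7.36%. Results that rest on these libraries are therefore given with and without them. What set this dish apart was not tested.

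Values are normalized counts, that is raw counts divided by the size factor of the library, and changes compare trametinib with DMSO on the log2 scale, each with a standard error (SE). Input and footprint changes were tested with edgeR's quasi-likelihood test over all genes of the assay, and a gene was called at a Benjamini-Hochberg adjusted p under 0.05. Every library is scaled to the others, so changes are relative to the bulk of mRNAs. In such lysates of many cells, a fall of an mRNA in each cell cannot be told apart from a loss of the cells that held it.

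**Figure D1:**
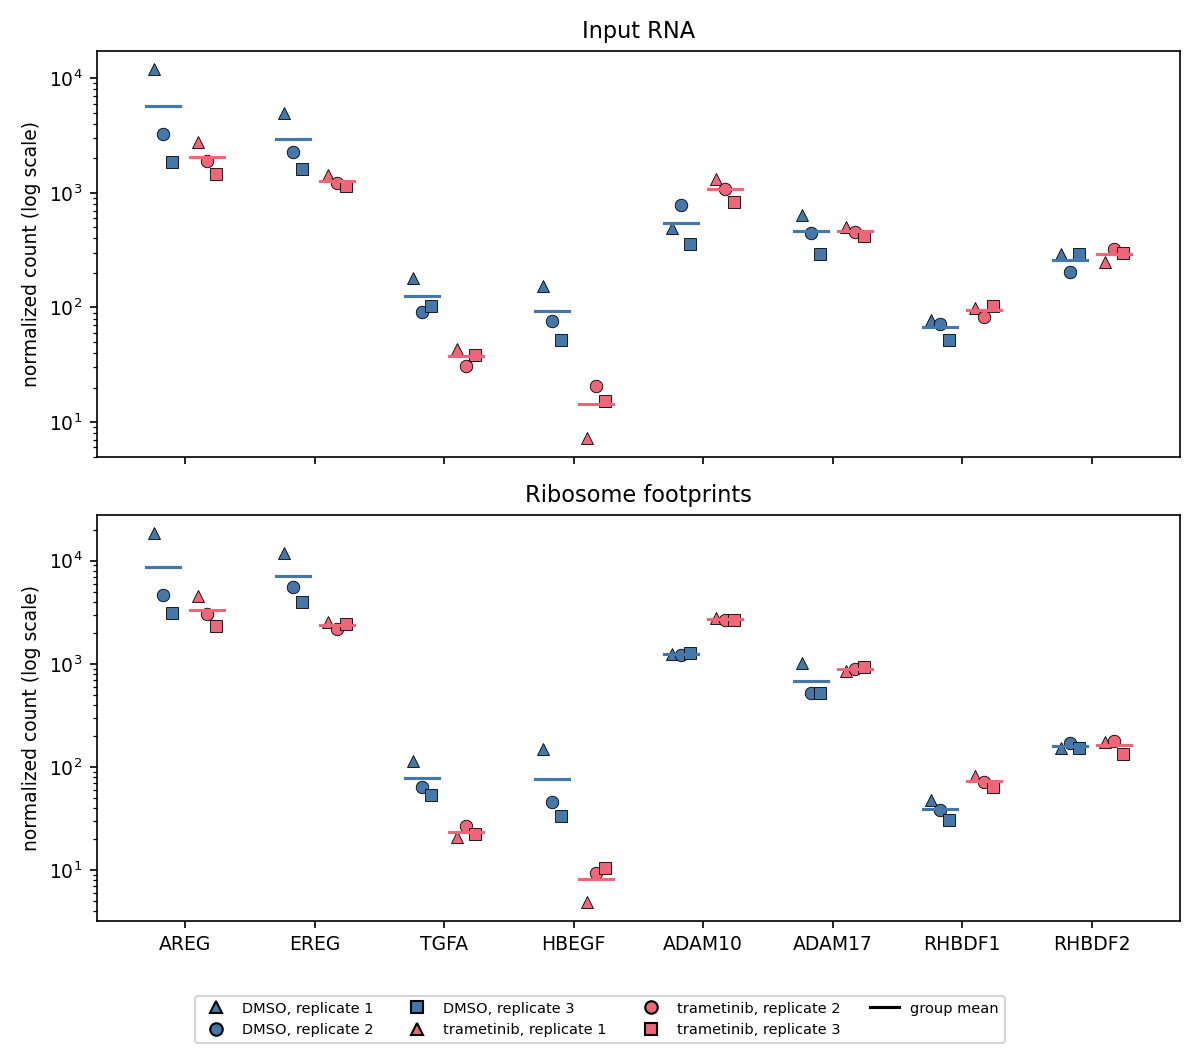
Normalized counts (log axis) of the 8 genes in the 12 libraries, input RNA above and ribosome footprints below, with a symbol for each replicate and a line at the mean of each group of 3. DMSO replicate 1 (blue triangles) is the highest DMSO library for the 4 ligands in both assays, and the trametinib libraries of EREG, TGFA and HBEGF lie below every DMSO library.

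EREG, TGFA and HBEGF were lower under trametinib in both assays, ADAM10 was higher in both, and AREG depended on 1 dish. In input, AREG, EREG, TGFA and HBEGF fell and ADAM10 rose, whereas ADAM17, RHBDF1 and RHBDF2 did not pass. In footprints, EREG, TGFA and HBEGF fell, ADAM10 and RHBDF1 rose, and AREG did not pass in the fit without pairing. Thus 1 of 8 members was called higher and 4 lower in input, where 15.4% of all 10663 genes tested were called higher and 16.7% lower, and 2 of 8 were called higher and 3 lower in footprints, where 24.1% of 11941 genes were called higher and 24.5% lower. HBEGF, counted here, entered the input test through its DMSO libraries alone. With the replicate number as a block, 4 members were called lower in footprints, AREG being added. All trametinib libraries were below all DMSO libraries for 3 members in each assay, against 23.3% of genes in input and 28.9% in footprints, and above them for 2 members in each assay, against 23.2% and 30.1%. The median log2 change of the 4 ligands was -1.59 in input and -1.66 in footprints, and the median over all genes was within 0.01 of 0 in both assays. Without DMSO replicate 1 the ligands' median was -0.61 in input, over the 3 that could be tested, and -1.16 in footprints, over 4.

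HBEGF, which also serves as the diphtheria toxin receptor, had the largest fall of the 8 members. Its input values were 153, 75.6 and 51.5 normalized counts in the DMSO libraries and 7.22, 20.6 and 15.4 in the trametinib libraries. The groups did not overlap, and the trametinib mean was 15.4% of the DMSO mean. These values rest on few reads, from 22 to 71 raw counts in DMSO and from 3 to 8 in trametinib, and HBEGF passed the filter on low counts through its DMSO libraries alone. The log2 change in input, -2.68 (SE 0.49), is therefore a description, since a gene selected through its high group had to differ. In edgeR with no filter on low counts, where this selection is absent, the change was -2.70 (SE 0.42, adjusted p = 4.82e-06).

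In footprints, where more reads were available, HBEGF had 151, 46.2 and 33.9 normalized counts in DMSO and 4.92, 9.45 and 10.5 in trametinib. Each trametinib library was below each DMSO library here too. The log2 change was -3.28 (SE 0.60, adjusted p = 0.00203, edgeR), and without DMSO replicate 1 it was -2.31 and still called. The trametinib mean was 10.7% of the DMSO mean with that library and 20.7% without it. In input, where HBEGF then failed the filter on low counts and was not tested, the corresponding values were 15.4% and 22.7%.

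TGFA, the classical autocrine ligand of EGFR, had 181, 90.7 and 103 normalized counts in DMSO input against 43.3, 30.9 and 38.6 in trametinib input. Footprints showed the same order, with 116, 64.5 and 53.5 against 21.2, 27.1 and 22.4. The groups were apart in both assays, and the trametinib mean was 30.1% of the DMSO mean in input and 30.2% in footprints. TGFA fell by 1.72 on the log2 scale in input (SE 0.32, adjusted p = 0.00142, edgeR) and by 1.74 in footprints (SE 0.30, adjusted p = 0.00134). It was called in input and in footprints with any 1 library left out, with changes from -1.92 to -1.36 and from -1.97 to -1.32.

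EREG had 5004, 2292 and 1601 normalized counts in DMSO input and 1444, 1227 and 1152 in trametinib input. The trametinib libraries were close to each other and below the lowest DMSO library. The log2 change was -1.21 (SE 0.32, adjusted p = 0.0109, edgeR), and without DMSO replicate 1 it was reduced to -0.61 (adjusted p = 0.00736). Footprints of EREG numbered 11841, 5524 and 4003 in DMSO and 2564, 2157 and 2441 in trametinib, again without overlap. The log2 change in footprints was -1.58 (SE 0.34, adjusted p = 0.00468), and -1.01 (adjusted p = 2.29e-05) without DMSO replicate 1. EREG thus remained called in both assays, at 65.5% of the DMSO level in input and 50.1% in footprints when that replicate was left out, compared with 43.0% and 33.5% over all libraries.

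AREG, the ligand with the most reads, depended on a single dish. Its input values were 11995, 3258 and 1859 normalized counts in DMSO and 2797, 1899 and 1468 in trametinib. DMSO replicate 1 was 3.68 times above the next DMSO library, and the other DMSO values overlapped those of trametinib. The log2 change of -1.47 (SE 0.50) passed narrowly (adjusted p = 0.0410, edgeR), and without DMSO replicate 1 it was -0.32 (adjusted p = 0.302). The call was also lost, with changes of a size near that over all libraries, in DESeq2's Wald test (-1.48, adjusted p = 0.165) and without trametinib replicate 1 (-1.74, adjusted p = 0.0525), 2 (-1.41, 0.126) or 3 (-1.27, 0.139). It was kept in edgeR with the replicate number as a block (-1.07, adjusted p = 0.000525) and with no filter on low counts (-1.49, adjusted p = 0.000933). In each pair of equal number the trametinib input library was the lower.

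Footprints of AREG numbered 18479, 4633 and 3086 normalized counts in DMSO and 4596, 3056 and 2313 in trametinib. The high value of DMSO replicate 1 recurred, at 3.99 times the next DMSO library, and the groups overlapped. The log2 change of -1.40 (SE 0.59) did not pass (adjusted p = 0.0758, edgeR), and without DMSO replicate 1 it was -0.22 (adjusted p = 0.417). With the replicate number as a block, which compares trametinib and DMSO libraries of equal number, AREG footprints passed (-1.01, adjusted p = 0.0227). In each of the 3 numbers the trametinib library was the lower of the pair. Without DMSO replicate 1, the trametinib mean of AREG was 80.3% of the DMSO mean in input and 86.1% in footprints, so that the size of the difference in AREG moved with that dish.

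ADAM10, a metalloprotease that also cleaves Notch and E-cadherin, was the member that moved upwards most. It had 492, 782 and 358 normalized counts in DMSO input and 1309, 1078 and 825 in trametinib input. The lowest trametinib value exceeded the highest DMSO value by a small margin. The log2 change in input was 0.98 (SE 0.25, adjusted p = 0.00952, edgeR), and it did not pass without trametinib replicate 1 (0.83, adjusted p = 0.0506). Footprints of ADAM10 were far less variable, with 1247, 1232 and 1280 in DMSO and 2813, 2688 and 2681 in trametinib. The trametinib mean was 218% of the DMSO mean. The log2 change in footprints was 1.11 (SE 0.10, adjusted p = 4e-05), with a range from 1.09 to 1.13 when each library was left out in turn, and DMSO replicate 1 did not stand apart for this gene.

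ADAM17, also called TACE for its cleavage of tumour necrosis factor, had 645, 445 and 295 normalized counts in DMSO input and 508, 453 and 422 in trametinib input. The trametinib values lay within the DMSO range, and the log2 change was 0.00 (SE 0.24, adjusted p = 0.996, edgeR). Its approximate 95% interval ran from -0.46 to 0.46. Footprints numbered 1017, 523 and 520 in DMSO and 850, 885 and 935 in trametinib, so that DMSO replicate 1 was above, and the other DMSO libraries were below, all trametinib libraries. The change of 0.37 (SE 0.24) did not pass (adjusted p = 0.235). Without DMSO replicate 1 it was 0.76 and passed (adjusted p = 1.63e-05), and the trametinib mean was then 171% of the DMSO mean instead of 130%.

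The iRhoms differed from each other in their values. RHBDF1 had 77.7, 71.3 and 51.5 normalized counts in DMSO input and 98.7, 82.3 and 103 in trametinib input. The groups did not overlap, but the log2 change of 0.50 (SE 0.25) did not pass (adjusted p = 0.136, edgeR). Footprints of RHBDF1 rose from 47.9, 38.4 and 31.0 to 82.9, 72.3 and 64.2, a log2 change of 0.90 (SE 0.20, adjusted p = 0.00498), called with any 1 library left out. RHBDF1 was measured on 22 to 41 raw counts in input and 59 to 270 in footprints, so input allowed the coarser estimate.

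RHBDF2, the iRhom best known from immune cells, had 291, 203 and 290 normalized counts in DMSO input and 248, 324 and 298 in trametinib input. Its footprints numbered 153, 172 and 155 in DMSO and 176, 179 and 134 in trametinib. The groups overlapped in both assays. The log2 change was 0.16 in input (SE 0.20, adjusted p = 0.580, edgeR) and 0.02 in footprints (SE 0.15, adjusted p = 0.907). The approximate 95% interval in footprints ran from -0.27 to 0.31. Whether RHBDF1 and RHBDF2 changed to different extents was not tested.

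**Figure D2:**
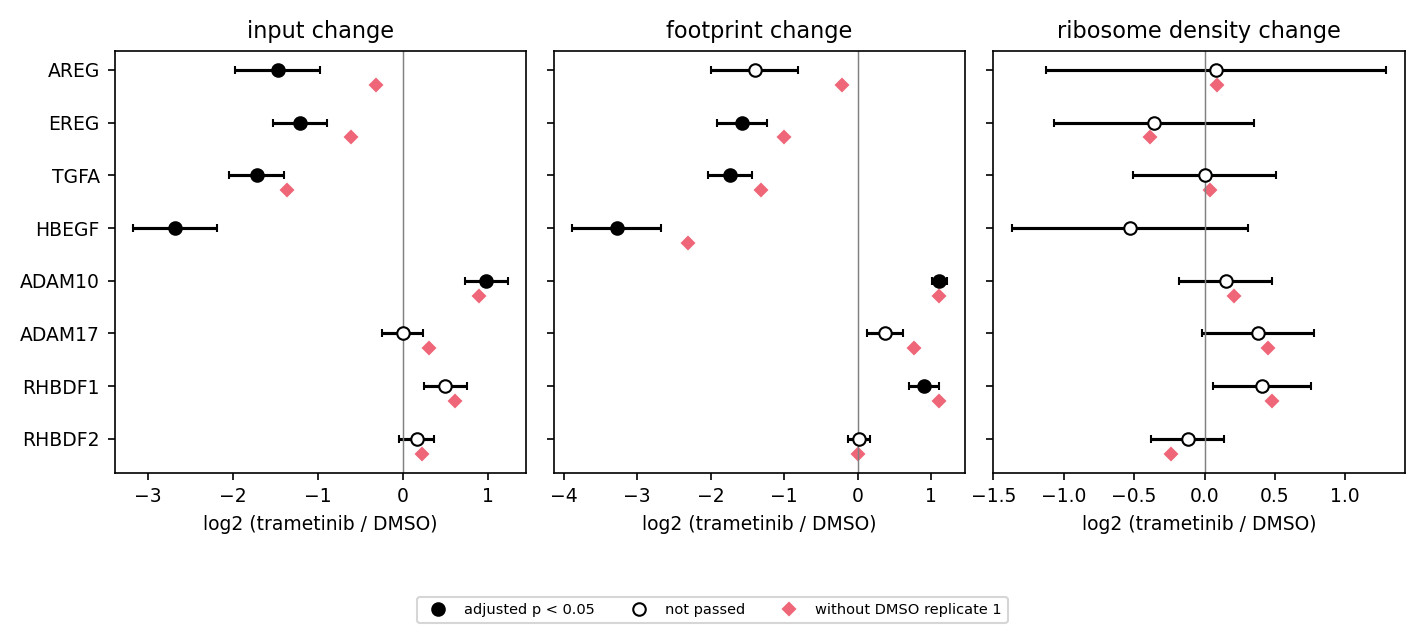
Log2 change of trametinib over DMSO for the 8 genes in input, footprints and ribosome density (horizontal axes, which differ in range), with bars of 1 SE, filled where the adjusted p was under 0.05. The filled point of HBEGF in input is a description, since HBEGF entered that test through its DMSO libraries alone. Diamonds give the change without DMSO replicate 1 (HBEGF has none in input and density, where it then failed the filter on low counts), and the diamond of AREG moves to -0.32 in input and -0.22 in footprints.

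Ribosome density, the ratio of footprints to input, asks whether the translation of an mRNA changed relative to its abundance. It was tested as the interaction of assay and treatment in DESeq2 with a likelihood ratio test over all 12 libraries. None of the 8 members was called, and 0 of 8 had an unadjusted p under 0.05 in this test or in edgeR's quasi-likelihood test of the same interaction. Of all 10663 genes tested, 0.328% were called higher and 1.41% lower. The ligands' median density change was -0.18, and the SE of single ligands ran from 0.51 (TGFA) to 1.21 (AREG). HBEGF entered this test through its DMSO input libraries alone. Whether density changed less than input or footprints was not tested.

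The precision of this comparison differed between the members. ADAM10 had a log2 density change of 0.15 with a 95% interval from -0.50 to 0.79, and RHBDF2 one of -0.12 with an interval from -0.63 to 0.40, so that changes of 2-fold lie outside both intervals. For AREG the change was 0.08 with an interval from -2.29 to 2.45, in a fit that does not use the fact that input and footprints of DMSO replicate 1 were high together. A term for each dish, that is for an input and a footprint library of the same treatment and number, narrowed the SE of AREG from 1.21 to 0.16, with a change of 0.07 (adjusted p = 0.995, DESeq2). TGFA had an interval that reached 2-fold in either direction, HBEGF one from -2.18 to 1.11, and ADAM17 and RHBDF1 from -0.42 to 1.17 and from -0.28 to 1.10.

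By dish, the density of AREG was 1.54, 1.42 and 1.66 in DMSO and 1.64, 1.61 and 1.58 in trametinib. The values overlapped, and DMSO replicate 1 was in the middle of its group, although its AREG counts were the highest in both assays. EREG had densities of 2.37, 2.41 and 2.50 in DMSO and 1.78, 1.76 and 2.12 in trametinib, all trametinib dishes being lower, as was seen in 8.99% of genes. RHBDF1 had 0.617, 0.539 and 0.601 in DMSO and 0.841, 0.878 and 0.625 in trametinib, all being higher, as in 7.94% of genes. The change of EREG, -0.36 (SE 0.71, adjusted p = 0.997, DESeq2), had an SE of 0.17 with a term for each dish and an unadjusted p of 0.0284, but did not pass (-0.37, adjusted p = 0.472), and RHBDF1 did not pass in either fit (adjusted p = 0.952 and 0.924).

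**Figure D3:**
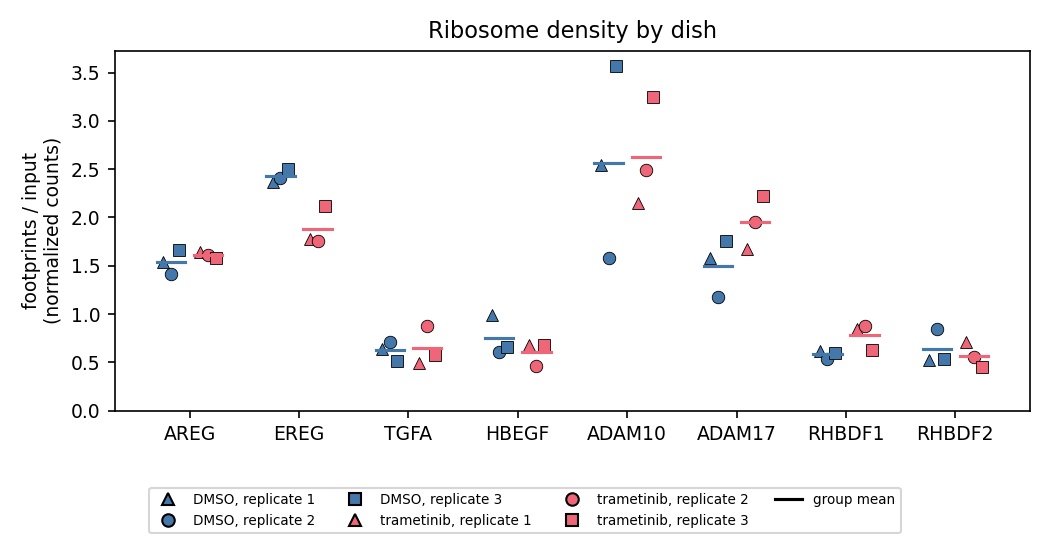
Ribosome density of the 8 genes in each dish, as footprints over input in normalized counts (linear axis from 0), with a line at the mean of each group of 3. EREG and ADAM10 have the highest mean densities in DMSO (in trametinib, ADAM10 and ADAM17 do), and the trametinib dishes are apart from the DMSO dishes for EREG (lower) and RHBDF1 (higher), neither of which passed the test.

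The members covered a wide range of ribosome densities in DMSO, a quantity that is scaled to the libraries and has no absolute unit. EREG, at 2.40, was at percentile 92.0 of 10660 genes, whose median was 1.02, and ADAM10, at 2.30, was at percentile 90.8. AREG (percentile 73.9) and ADAM17 (72.3) were above the middle as well. HBEGF was at percentile 37.8, TGFA at 24.2, RHBDF2 at 23.4 and RHBDF1 at 21.7. The ligands thus stood on both sides of the median, both ADAM proteases above it and both iRhoms below it.

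Divided by the length of the reading frame, levels can be set side by side between genes. AREG and EREG were the most abundant members in each of the 4 groups. In DMSO input they reached 7545 ± 7266 and 5850 ± 3548 normalized counts per kb (SD, n = 3), and EREG was 22.5 times above TGFA (260 ± 102), the next in order. ADAM10 followed at 242 ± 96.6, ADAM17 at 187 ± 71.0, HBEGF at 150 ± 85.1 and RHBDF2 at 105 ± 20.4 per kb. Libraries of neighbours in this order overlapped except between EREG and TGFA and between RHBDF2 and RHBDF1, which was the lowest at 26.1 ± 5.32.

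In trametinib input the distance between the ligands and ADAM10 was smaller. AREG had 2718 ± 897 and EREG 2514 ± 299 normalized counts per kb, and EREG was 5.27 times above ADAM10, now the third at 477 ± 108. TGFA fell behind RHBDF2, to 78.3 ± 13.1, and HBEGF to the last place at 23.1 ± 10.8, where it overlapped RHBDF1 at 36.9 ± 4.22. In footprints the first place went to EREG, with 14048 ± 8198 per kb in DMSO and 4709 ± 411 in trametinib, but AREG overlapped it in both (11551 ± 11212 and 4394 ± 1540). AREG stood 20.7 times above ADAM10 in DMSO footprints (9.13 times without DMSO replicate 1) and 3.62 times in trametinib footprints, where ADAM10 had 1215 ± 33.0 per kb and HBEGF 13.3 ± 4.74.

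The order in DMSO depended in part on replicate 1. Over the other 2 DMSO libraries, EREG was first in input too, at 3840 normalized counts per kb against 3384 for AREG, and their libraries overlapped. AREG was then 13.3 times above ADAM10 (254 per kb), which came before TGFA (202 per kb). In footprints EREG had 9395 per kb against 5106 for AREG, without overlap between these libraries.

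Among the 4 ligands, AREG and EREG made up nearly the whole of the normalized counts per kb. In input, AREG held 49.6 ± 9.56% in DMSO and 50.2 ± 5.34% in trametinib, and EREG held 46.8 ± 8.31% and 47.9 ± 4.89% (SD, n = 3). In footprints, EREG held 58.9 ± 9.14% and 52.2 ± 7.82%, and AREG 39.9 ± 9.31% and 47.1 ± 7.97%. These shares overlapped between treatments. The share of HBEGF in footprints was 0.503, 0.430 and 0.448% in DMSO and 0.0704, 0.181 and 0.211% in trametinib, without overlap.

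Ratios between ligands within a library do not depend on the scaling of libraries. HBEGF relative to EREG ranged from 0.0306 to 0.0330 in DMSO input and from 0.005 to 0.0168 in trametinib input. In footprints the range was 0.00837 to 0.0128 in DMSO and 0.00192 to 0.00438 in trametinib, all trametinib libraries being below all DMSO libraries in both assays. TGFA relative to EREG was apart in input (0.0362 to 0.0643 against 0.0252 to 0.0335) but overlapped in footprints (0.0098 to 0.0134 against 0.00827 to 0.0126). AREG relative to EREG overlapped in both assays, with 1.16 to 2.40 against 1.27 to 1.94 in input. Of the 6 pairs of ligands, 3 were without overlap in each assay. In footprints each of these pairs held HBEGF. In input they were HBEGF with AREG, HBEGF with EREG, and TGFA with EREG, and HBEGF there rests on few reads. The pairs share genes, and no share over all gene pairs was computed. The count is a description with no test.

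**Figure D4:**
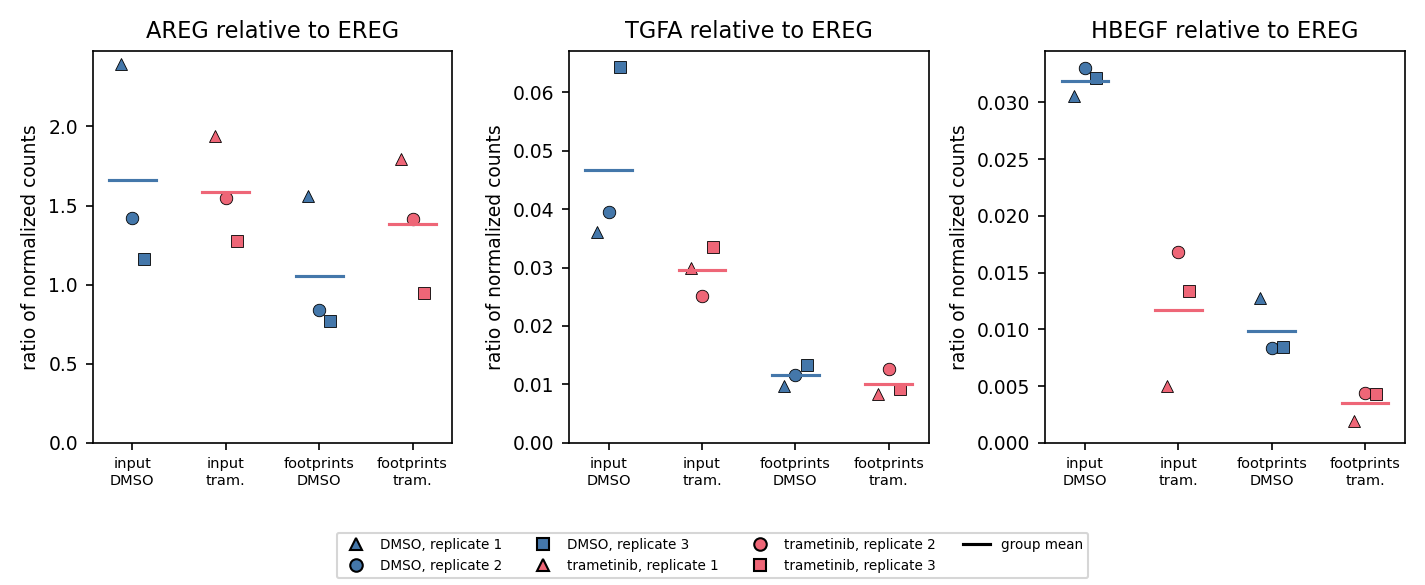
Normalized counts of AREG, TGFA and HBEGF divided by those of EREG in the same library (linear axes from 0, not divided by length), in input and footprints of DMSO and trametinib, with a line at the mean of each group of 3. The trametinib libraries of HBEGF, at 0.0168 or less in input and 0.00438 or less in footprints, lie below the DMSO libraries, whereas those of AREG overlap.

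The other genes of the pathway were read from lists. Of the remaining ligands of the EGFR family, EGF, BTC, EPGN, NRG1, NRG2 and NRG4 were in the table and 0 of them passed the filter in input, with at most 11 raw counts per library. In footprints EGF and BTC (betacellulin) were tested. EGF had 1.47, 3.26 and 2.95 normalized counts in DMSO and 4.92, 8.63 and 10.5 in trametinib, at most 22 raw counts, and passed the filter through its trametinib libraries. Since a gene selected through its high group had to differ, no test of EGF is read as a result. BTC had 23.9, 8.47 and 9.95 in DMSO and 29.2, 26.3 and 21.4 in trametinib and did not pass (0.81, adjusted p = 0.0895, edgeR), but passed without DMSO replicate 1 (1.45, adjusted p = 0.000327).

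Of the receptors, ERBB2 and ERBB3 rose in both assays and EGFR in footprints. ERBB2, the receptor without a ligand of its own, rose by 0.90 in input (SE 0.14, adjusted p = 0.000404, edgeR) and by 1.09 in footprints (SE 0.12, adjusted p = 0.000141). ERBB3, the neuregulin receptor with a weak kinase, rose by 0.91 in input (SE 0.16, adjusted p = 0.00102) and by 0.96 in footprints (SE 0.12, adjusted p = 0.000233). EGFR itself had 636, 555 and 501 normalized counts in DMSO input and 619, 744 and 733 in trametinib input and did not pass there (0.31, adjusted p = 0.153). In footprints it had 853, 725 and 648 against 1013, 1075 and 1026, and rose by 0.48 (SE 0.12, adjusted p = 0.0117). The receptors thus had 2 of 3 tested genes higher in input and 3 of 3 in footprints, against 15.4% and 24.1% of all genes called higher, with ERBB4 at no more than 8 raw counts.

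Of 11 regulators of ADAM10 and ADAM17, 9 were tested in input, where 3 rose and 1 fell, and 10 in footprints, where 5 rose and 1 fell. Of all genes, 15.4% rose and 16.7% fell in input, and 24.1% rose and 24.5% fell in footprints. The tetraspanins that accompany ADAM10 (the TspanC8 group) moved in both directions. TSPAN15 had 81.4, 63.2 and 73.0 normalized footprint counts in DMSO and 190, 209 and 154 in trametinib. It rose by 1.33 in footprints (SE 0.16, adjusted p = 0.000216, edgeR) and by 1.04 in input (SE 0.23, adjusted p = 0.00392). TSPAN17 rose by 0.97 in footprints (adjusted p = 0.000769) and by 0.48 in input (adjusted p = 0.0410), whereas TSPAN14 fell by 0.43 in footprints (adjusted p = 0.0182) and TSPAN5 fell by 0.63 in input (adjusted p = 0.0222). TSPAN33 did not pass in either assay.

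The proprotein convertases that cut the prodomain of ADAM proteases were FURIN and PCSK7. FURIN rose in footprints (0.61, SE 0.12, adjusted p = 0.00252, edgeR) but did not pass in input (0.32, adjusted p = 0.195). PCSK7 rose in input (0.64, SE 0.22, adjusted p = 0.0412) but did not pass in footprints (0.05, adjusted p = 0.817). The sorting protein PACS2 rose in footprints (0.49, adjusted p = 0.0118), and so did TIMP3, an inhibitor of ADAM17, from 19.2, 7.82 and 12.9 normalized counts in DMSO to 54.1, 30.4 and 18.6 in trametinib (1.33, adjusted p = 0.0259), with groups that overlapped. FRMD8, which stabilises the iRhom complex, passed in neither assay (input 0.45, adjusted p = 0.0977, and footprints 0.01, adjusted p = 0.978). Without DMSO replicate 1, which also left fewer libraries, 1 regulator was called higher in input (TSPAN15) and 1 lower (TSPAN14, -0.46, adjusted p = 0.0499), and TSPAN5 was not called (adjusted p = 0.0581).

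Among 5 other membrane sheddases tested in each assay, ADAM19 fell and BACE1 rose in both, and ADAM9 rose in footprints. ADAM19, a protease able to cut neuregulin, had 535, 884 and 1037 normalized counts in DMSO input and 221, 188 and 219 in trametinib input, a log2 change of -1.96 (SE 0.23, adjusted p = 4.18e-05, edgeR), and -1.98 in footprints (SE 0.16, adjusted p = 1.53e-05). DMSO replicate 1 was its lowest DMSO library, unlike for the ligands. BACE1 rose by 0.85 in input (adjusted p = 0.0416) and by 0.85 in footprints (adjusted p = 0.0284), and ADAM9 by 0.58 in footprints (SE 0.12, adjusted p = 0.00373). The rhomboid protease RHBDL2 had 0 raw counts in every DMSO footprint library and at most 13 in trametinib and was not tested.

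Inhibitors of EGFR also moved in both directions. ERRFI1 (MIG6), a feedback inhibitor that binds the EGFR kinase domain, had 6186, 2182 and 1541 normalized counts in DMSO input and 1124, 1168 and 1018 in trametinib input. It fell by 1.58 in input (SE 0.38, adjusted p = 0.00747, edgeR) and by 1.39 in footprints (SE 0.42, adjusted p = 0.0222). As with the ligands, DMSO replicate 1 was more than 1.5 times above the other DMSO libraries, and without it the change was -0.76 (adjusted p = 0.00122) in input and -0.58 (adjusted p = 0.000665) in footprints. The ubiquitin ligase CBLB rose by 0.94 in input (adjusted p = 0.00381) and by 0.60 in footprints (adjusted p = 0.0288), and SOCS5 rose by 0.41 in footprints (adjusted p = 0.0183). CBL and LRIG1 did not pass, but LRIG1 passed in footprints without DMSO replicate 1 (0.55, adjusted p = 0.0384, edgeR). No gene of these lists was called in ribosome density by DESeq2, where 3 of the 22 tested had an unadjusted p under 0.05, as did 7.88% of all genes tested.

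**Figure D5:**
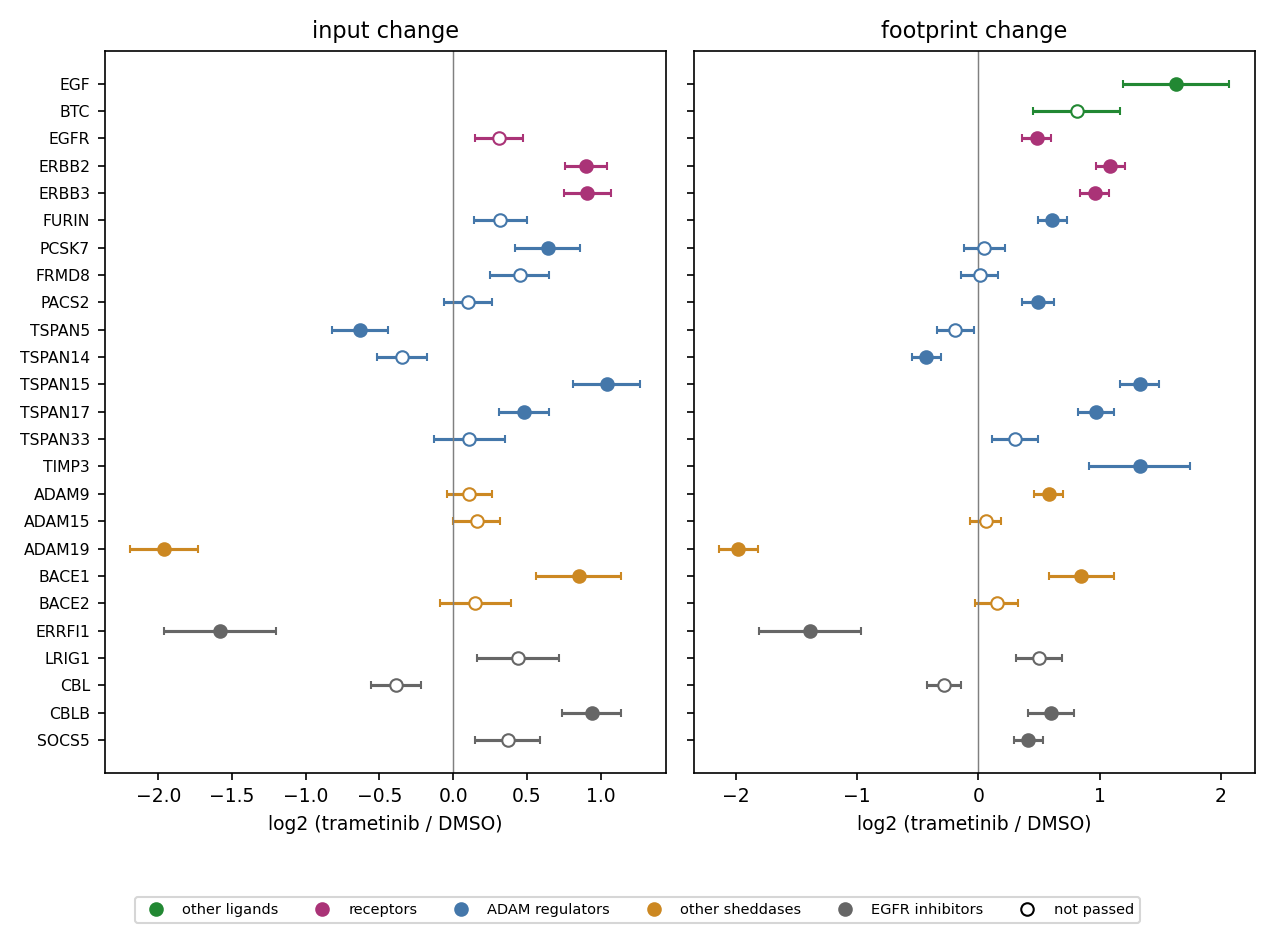
Log2 change of trametinib over DMSO (horizontal axes, with bars of 1 SE) of the other tested genes of the pathway in input and footprints, coloured by list and filled where the adjusted p was under 0.05. ERBB2 and ERBB3 lie near 1 in both assays, ADAM19 lies near -1.96 and -1.98, and genes without a point in input did not pass the filter on low counts there. EGF passed that filter in footprints through its trametinib libraries alone, so its filled point there is a description and not a call.

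The genes most like each member over the 12 libraries were found by Pearson's r of log2 (normalized count + 1), after the mean of the assay was subtracted, among 9296 genes with a mean of at least 50. These values describe libraries that share treatment and dish. AREG was closest to FBXO42 (r = 0.971) and ELL2 (0.970), and EREG to DDIT4 (0.989) and HERPUD1 (0.988). TGFA was closest to VGF (0.991) and YARS1 (0.987). ADAM10 was closest to STXBP3 (0.988) and KTN1 (0.983), ADAM17 to RAB9A and AP3S1 (both 0.964), and RHBDF1 to IGF2R (0.967) and SGSM1 (0.965). RHBDF2, which passed in neither assay, had the least similar neighbours, PRICKLE3 (0.902) and GPN2 (0.891), and HBEGF was under the minimum.

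Between the members, AREG and EREG had an r of 0.913 and EREG and TGFA one of 0.925 on the same scale. ADAM10 and RHBDF1 had an r of 0.829, and TGFA and ADAM10 ran in opposite directions, with an r of -0.847. ADAM17 had 0.520 with AREG and 0.684 with RHBDF1, so that it shared part of the pattern of each. RHBDF2 was within 0.17 of 0 with each of these members. HBEGF, under the minimum, was not included.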

How the data were processed

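HCT116 input RNA and footprints from the monosomal fraction, both selected at 25-35 nt, were sequenced in 3 replicates per group. The authors removed adapters, discarded rRNA and tRNA reads (Bowtie 1.2.2), mapped the rest to Gencode V38 and counted reads inside reading frames per gene symbol. The deposited table holds these raw counts and, as a signal, the same counts divided by size factors (DESeq2 1.46.0), which recomputed median-of-ratios factors equalled in 12 of 12 libraries. Its 8 columns of the authors' comparisons and flags (fold changes, p-values) were not used.

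Groups were taken from the labels. Input and footprint changes were tested with edgeR 4.0.16 (TMM, at least 10 counts in at least 3 of 6 libraries) and ribosome density with a DESeq2 1.42.0 likelihood ratio test (same filter on input), in R 4.3.3, with Benjamini-Hochberg adjustment over all genes, and were checked on simulated counts. The simulated counts held no dish effect, so that check does not cover the shared deviation of DMSO replicate 1. Intervals are the change ± 1.96 SE. For edgeR changes these are approximate and too narrow. RHBDF1 in input had an interval from 0.02 to 0.98 but an unadjusted p of 0.0615 in the quasi-likelihood test. Coding lengths are of the canonical transcripts of Gencode v44. Other size factors, filters, tests, blocks and left-out libraries were tried. Every member was named whatever its result, list genes where they passed, and the 2 genes of highest r per member. Members and lists were chosen with earlier results of these data known.

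Pairing by replicate number was checked with Pearson's r of the deviations from the group means over 7669 genes. Per the study's methods, input and footprints came from the same lysate, so equal numbers were taken as a dish (r = 0.816, 0.181 and 0.343 in DMSO, and 0.141, 0.0803 and -0.122 in trametinib). Between treatments r was 0.117, 0.133 and 0.294 in footprints and 0.0680, 0.0484 and 0.334 in input. These low values do not settle whether DMSO and trametinib dishes of equal number were paired. The blocked fits of both assays are therefore given as another setting.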

Additional observations from a re-analysis of the deposited data

How the results depend on the processing

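The limits lie mainly in DMSO replicate 1 and in the depth of input. Single-member changes kept direction and call in 64 of 77 comparisons with other settings for input (6 lost the call, 7 turned), 73 of 80 for footprints (4 gained it, 3 turned) and 166 of 194 for density (28 turned, none of them called). Shares of ligands moved beyond 1 SD in 9 of 64 comparisons, each of them without division by coding length. HBEGF could be tested in input in 3 of 6 fits with a library left out. Where a call was lost, the cause was not tested.

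With 1 library left out, members called higher in input ranged from 0 to 1 and members called lower from 2 to 3 (4 with every library), the lowest count being without DMSO replicate 1. Genes called higher in input ranged from 1003 to 1719. Requiring at least a 2-fold change left 0 members higher in input and 1 in footprints, 721 genes higher and 932 lower in input, and 1037 higher and 1132 lower in footprints. For density it left 11 higher and 94 lower. Density calls with a library or dish left out (the latter chosen after seeing the data, as was leaving DMSO replicate 1 out of levels, medians and pathway lists) ranged from 3 to 40 higher and from 97 to 181 lower. Genes higher in density numbered 20 with size factors within each assay and 5 with edgeR, against 35.

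Values close to 0 turned their sign. ADAM17 input was -0.01 with median-of-ratios factors, -0.02 with no filter, -0.01 with DESeq2's Wald test and -0.24 to 0.31 with a library left out. RHBDF2 then ranged between -0.01 and 0.27 in input, and between -0.05 and 0.14 in footprints. Left-out ranges for density were -1.08 to 1.26 for AREG, -0.97 to 0.22 for EREG, -0.38 to 0.41 for TGFA, -0.90 to 0.42 for HBEGF, -0.23 to 0.38 for ADAM10 and -0.27 to 0.08 for RHBDF2. The extremes of AREG came from leaving out only the input or only the footprints of DMSO replicate 1. With a whole dish left out, AREG density ranged from 0.05 to 0.10. TGFA density was 0.05 with TMM. AREG footprints passed with no filter (-1.41, adjusted p = 0.0440) and without DMSO replicate 3 (-1.81, adjusted p = 0.0176).

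With the replicate block, density calls were 20 higher, TGFA density was 0.05, and 0.01 by dish. Between treatments, 4 of 6 input libraries and 5 of 6 footprint libraries correlated best with their own number. The block gave 1959 genes higher and 2053 lower in input, against 1641 and 1786. Beyond AREG footprints, which passed with the block (-1.01, adjusted p = 0.0227, edgeR), the block changed no call of a member.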
